A study of Mus musculus with 5 samples.

Results

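A set of 9 genes for transport and secretion by the retinal pigment epithelium was followed in RNA from mouse retina. The retinal pigment epithelium (RPE) is the pigmented cell layer behind the photoreceptors. It carries ions, water, lactate, amino acids and retinol between the retina and the choroidal blood supply, takes part in the visual cycle, and secretes proteins towards both sides. Some of its genes are also used by other cells of the eye, among them the Müller glia of the retina and the epithelium of the ciliary body. The channel and transporter genes were Best1, Kcnj13, Slc26a4, Slc16a8 and Slc6a20a. Stra6 encodes the cell-surface receptor through which cells take up retinol from its carrier in blood, and Ttr encodes transthyretin, which binds that carrier and thyroid hormone. Serpinf1 encodes the secreted factor PEDF, and Ezr encodes ezrin, which ties the membrane of microvilli to actin. The genes were taken by symbol from the 33636 rows of the count table. Each symbol had 1 row, and all 9 passed the filter of more than 10 counts in at least 2 libraries that left 17432 genes. The choice of genes was made with the difference between form-deprived and control eyes in these libraries known, and the authors listed all of them except Best1 and Serpinf1 as changed. That difference is therefore given as a description of the genes.

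The samples were retinas of wild-type male C57BL6/J mice collected at P42. Form-deprivation myopia (FDM) was induced from P28, for 2 weeks, with a diffuser goggle attached over the right eye, and the uncovered left eye of the goggled animals was the contralateral control. The control retinas therefore came from treated animals, and no retina of an untreated mouse was part of the comparison. The 5 libraries were FDM 1 and FDM 3, and Control 1, Control 2 and Control 3. The numbers are those of the count table. The supplement of the study also numbers this FDM library 3, while the sample labels number it 2. By number, the partner of FDM 3 is therefore Control 3 by the table and Control 2 by the labels. Libraries held 40599047 to 56534931 estimated counts. Levels are given as CPM, the count scaled to a common library size after TMM scaling, and at these depths a floor of 3 counts lay between 0.0526 and 0.0751 CPM.

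Retinal markers were abundant in every library, with a summed level of 49656 to 63521 CPM for 12 neuronal markers, and their median log2 fold change between FDM and control eyes was -0.02. Markers of lens and of muscle stood apart in single libraries. The sum of 6 lens markers was 1768 CPM in FDM 3 and 2.10 to 15.6 CPM in the other libraries, and the sum of 4 skeletal muscle markers was 46.3 CPM in Control 3 and 6.29 to 7.65 CPM in the other libraries. RPE markers were present in all 5 libraries and differed among them, as given beside the results. In bulk tissue, fewer RPE cells and less RNA per RPE cell cannot be told apart.

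The 250 bases upstream of the RefSeq start are shown for the genes with the widest spread among libraries, Slc26a4 and Kcnj13, and for Best1, which had the narrowest spread among the control libraries. Capitals mark matches to CATGTG, the core of the M-box bound by the pigment cell factor MITF, or to TAATCC, a core bound by OTX factors, on either strand. All are from RefSeq, on the build GRCm38.p6 and on the minus strand, written 5′ to 3′ up to the base before the start. The first lies at chr1:87394730-87394979, the second at chr12:31559985-31560234 and the third at chr19:10001634-10001883.
Kcnj13: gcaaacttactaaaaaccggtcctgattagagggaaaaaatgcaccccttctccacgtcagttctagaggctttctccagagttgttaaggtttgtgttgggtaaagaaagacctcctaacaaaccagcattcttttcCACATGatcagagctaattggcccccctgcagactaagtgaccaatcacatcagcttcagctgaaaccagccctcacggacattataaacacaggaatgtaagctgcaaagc
Slc26a4: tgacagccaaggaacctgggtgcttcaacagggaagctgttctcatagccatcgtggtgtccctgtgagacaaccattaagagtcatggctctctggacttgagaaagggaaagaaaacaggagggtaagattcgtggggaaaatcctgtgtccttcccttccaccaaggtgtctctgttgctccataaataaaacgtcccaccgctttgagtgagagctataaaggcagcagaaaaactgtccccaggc
Best1: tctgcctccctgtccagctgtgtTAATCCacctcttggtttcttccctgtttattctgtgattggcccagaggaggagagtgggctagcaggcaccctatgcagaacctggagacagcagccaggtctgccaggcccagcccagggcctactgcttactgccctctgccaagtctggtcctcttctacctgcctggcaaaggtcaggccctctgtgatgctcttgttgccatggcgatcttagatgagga
The Kcnj13 window held CACATG, the reverse complement of CATGTG, starting 112 bases before the start, and the Best1 window held TAATCC starting 227 bases before it. Neither motif, nor the E-box CACGTG, was in the Slc26a4 window. Across the 11 windows of the 8 genes searched, those of Kcnj13 and Serpinf1 held the M-box core, and Best1 alone held the OTX core. CATGTG or its reverse complement was found in 12.3% of all 32851 promoter windows of this length, TAATCC or its reverse complement in 6.25%, and CACGTG in 6.02%. The motifs searched do not overlap each other. The window of Ttr was not searched.

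Kcnj13 encodes Kir7.1, the inwardly rectifying potassium channel of the apical RPE membrane. It lies on chromosome 1 of GRCm38, 87386363 to 87394729, on the minus strand. FDM 1 and FDM 3 had 26 counts each, and Control 1, 2 and 3 had 46, 320 and 177. In CPM, these were 0.600 and 0.541 in the FDM eyes and 1.15, 5.61 and 3.73 in the controls. Both FDM libraries lay below every control, and Control 1 stood nearer to the FDM eyes than to the other controls. The group means were 0.570 ± 0.0418 CPM (SD, n = 2) in FDM eyes and 3.50 ± 2.24 CPM (SD, n = 3) in control eyes, a log2 fold change of -2.63 (standard error 0.64). The 95% Poisson interval of the Control 1 level, which covers counting error only, ran from 0.844 to 1.54 CPM and overlapped that of FDM 1, which ended at 0.879 CPM, but not that of FDM 3, which ended at 0.792 CPM. Exons of Kcnj13 share 623 bases with exons of Gigyf2 on the other strand, and the library kit named in the labels does not keep strand. Gigyf2 had 6498 and 7298 counts in the FDM eyes and 6509, 9007 and 6569 in the controls, a log2 fold change of -0.02 (standard error 0.10).

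Slc26a4 encodes pendrin, an exchanger of chloride, iodide and bicarbonate. It lies on chromosome 12, 31519827 to 31559969, on the minus strand, and had the widest range of the 9 genes. The FDM eyes had 5 and 44 counts, and the controls 30, 492 and 292. The groups overlapped, since Control 1 at 0.751 CPM lay between FDM 1 at 0.115 CPM and FDM 3 at 0.915 CPM. Control 2 and Control 3 stood apart at 8.63 and 6.15 CPM. The log2 fold change was -3.31 (standard error 1.08). It moved to -5.47 without FDM 3 and to -2.51 without FDM 1, so the size of the difference depended on which FDM eye was kept.

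Slc16a8 encodes MCT3, the lactate transporter of the basolateral RPE membrane. On chromosome 15, from 79251014 to 79254761, it had 192 and 178 counts in FDM 1 and FDM 3 and 175, 556 and 417 in Control 1, 2 and 3. Control 1 at 4.38 CPM lay between the FDM libraries at 4.43 and 3.70 CPM, and the other controls were at 9.75 and 8.78 CPM. The log2 fold change was -0.92 (standard error 0.32). Slc6a20a, which encodes a sodium-coupled transporter of proline and other imino acids, lies on chromosome 9 from 123634770 to 123678885. It had 122 and 78 counts in the FDM eyes and 111, 342 and 213 in the controls. FDM 3 was lowest at 1.62 CPM, while FDM 1 at 2.81 CPM and Control 1 at 2.78 CPM were alike. Its log2 fold change was -1.01 (standard error 0.36). Slc6a20b, its close paralog, had 277 and 294 counts in FDM and 277, 299 and 302 in control eyes, a log2 fold change of 0.02 (standard error 0.15).

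Best1 encodes bestrophin 1, the calcium-activated anion channel of the basolateral RPE membrane. It lies on chromosome 19, 9985174 to 10001633, and was the gene with the fewest counts. The FDM eyes had 26 and 22 counts, and the controls 22, 35 and 35. The levels were 0.600 and 0.457 CPM in the FDM eyes and 0.551, 0.614 and 0.737 CPM in the controls. The groups overlapped, and the Poisson interval of the highest library, 0.513 to 1.03 CPM, overlapped that of the lowest, 0.287 to 0.693 CPM. The log2 fold change was -0.27 (standard error 0.28). Best2, a paralog expressed in ciliary epithelium, had 8 and 55 counts in FDM 1 and FDM 3 and 14, 295 and 140 in the controls. The order of libraries for Best2, from FDM 1 through Control 1, FDM 3 and Control 3 to Control 2, was that of Slc26a4 and not that of Best1. Its log2 fold change was -2.08 (standard error 1.03).

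Among the genes of retinol and thyroid hormone carriage, Ttr had the highest level of the set. It lies on chromosome 18, 20665280 to 20674321, and had 1387 and 1210 counts in the FDM eyes and 1348, 6615 and 4400 in the controls. The levels were 32.0 and 25.2 CPM against 33.8, 116 and 92.7 CPM. Both FDM libraries lay below every control, with Control 1 close to FDM 1 and the other controls far above. The means were 28.6 ± 4.83 CPM (SD, n = 2) and 80.8 ± 42.4 CPM (SD, n = 3), with a log2 fold change of -1.50 (standard error 0.46). Stra6, on chromosome 9 from 58063788 to 58153996, had 367 and 376 counts in the FDM eyes and 371, 823 and 752 in the controls. The levels were 8.47 and 7.82 CPM against 9.29, 14.4 and 15.8 CPM, again with Control 1 beside the FDM eyes. Its log2 fold change was -0.70 (standard error 0.22).

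Ezr and Serpinf1, with Best1, had the narrowest spread of the set. Ezr, on chromosome 17 from 6738041 to 6782784, had 525 and 581 counts in the FDM eyes and 508, 974 and 835 in the controls. These were 12.1 CPM in both FDM eyes and 12.7, 17.1 and 17.6 CPM in the controls, with a fitted log2 change of -0.39 (standard error 0.15). Serpinf1, on chromosome 11 from 75409769 to 75422701, had 165 and 183 counts in the FDM eyes and 147, 218 and 246 in the controls. Its levels were 3.81 CPM in both FDM eyes and 3.68, 3.82 and 5.18 CPM in the controls, so Control 3 stood away from the others and Control 2 was level with the FDM eyes. The log2 fold change of Serpinf1 was -0.15 (standard error 0.18), and it turned to 0.025 without Control 3. The related genes moesin (Msn) and radixin (Rdx), which encode the other members of the ezrin family, had log2 fold changes of -0.03 (standard error 0.08) and -0.11 (standard error 0.14).

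**Figure D1:**
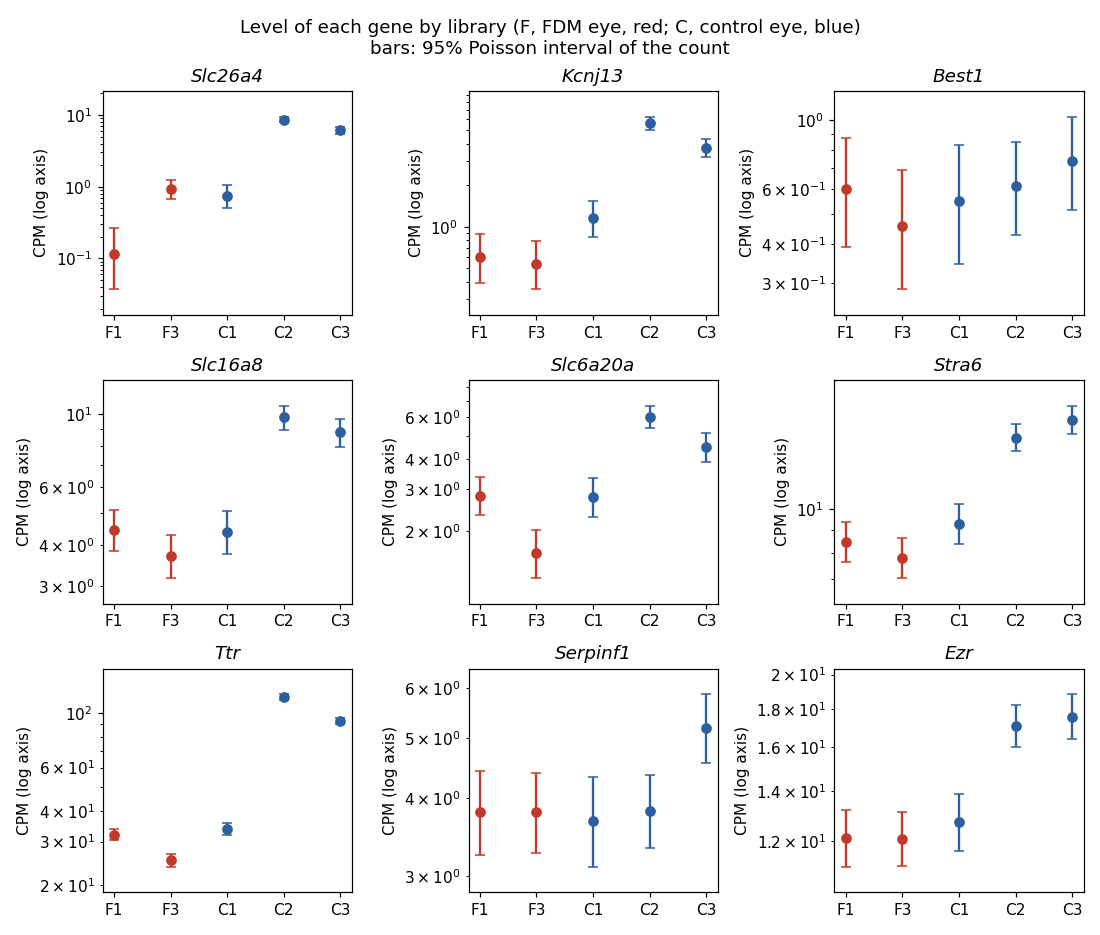
Level of each of the 9 genes in CPM on a log axis (a separate range in each panel), in the 2 FDM libraries (F1, F3) and the 3 control libraries (C1, C2, C3), with the 95% Poisson interval of each count as the bar. Control 2 and Control 3 are the highest libraries in every panel, by the least for Serpinf1, where Control 2 is at 3.82 CPM and the FDM eyes are at 3.81 CPM.

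Per length of transcript, on the TPM scale, the mean level in control eyes ran in the order Ttr (173), Ezr (12.6), Stra6 (10.8), Slc16a8 (10.7), Kcnj13 (7.02), Serpinf1 (5.82), Slc26a4 (4.297), Slc6a20a (2.89) and Best1 (0.770). The control libraries of Ttr lay above those of every other gene. The 7 genes between Ttr and Best1 each overlapped the next in the range of their control libraries. Genes farther apart could be separate, as Ezr was from Serpinf1 and Serpinf1 from Slc6a20a. Compared within each library, Ezr lay above Stra6, and Slc16a8 above Kcnj13, in every control. The order of the other neighbours among these 7 differed between controls. Best1 lay below Slc6a20a in every control, but in Control 1 it stood at 0.660 and Slc26a4 at 0.609. In FDM eyes the order of the lower genes differed. Kcnj13 at 1.15 stood below Serpinf1 at 5.33 and Slc6a20a at 1.46, and Slc26a4 at 0.429 stood below Best1 at 0.653. The FDM eyes did not share the latter order, since Slc26a4 was at 0.0966 and Best1 at 0.743 in FDM 1, and at 0.762 and 0.563 in FDM 3. Kcnj13, at 1.09 to 1.22, overlapped Slc6a20a, at 1.07 to 1.86.

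In the comparison of FDM with control eyes, all 9 fitted fold changes were below 0, with a median of -0.92 on the log2 scale, where the median over all genes tested was -0.01 and 55.6% of genes were below 0. In edgeR's quasi-likelihood test 7 of the 9 had an unadjusted p under 0.05, all lower in FDM eyes, and the exceptions were Best1 and Serpinf1. Over all genes tested, 1.16% were called lower by this rule (1.61% in either direction), and since the genes were picked on this same contrast the count is not a test of it. After Benjamini-Hochberg adjustment over all genes, 0 of the 9 passed in edgeR, and 0% of all genes did, while 281 genes had an unadjusted p under 0.05. DESeq2 called the same 7 genes at an unadjusted p under 0.05, with 0.78% of all genes lower. In DESeq2, Kcnj13 passed the adjustment with an adjusted p of 0.0159, where 0.0172% of genes did. Without Control 1, Ttr and Kcnj13 passed in edgeR, each with an adjusted p of 0.0213 (0.0692% of genes called). The labels do not say that eyes of the same number came from the same mouse. With the number as a replicate block, paired as in the count table, Slc26a4 had an adjusted p of 6.25e-04 in edgeR (0.31% of genes called). Paired by the numbers of the labels, Ttr, Kcnj13, Slc26a4 and Slc6a20a passed, with adjusted p from 2.50e-17 to 0.0184 in edgeR (0.734% of genes called). The 7 genes with an unadjusted p under 0.05 were again called in each of these fits, with 3.67% and 1.78% of all genes called lower. Each fit with the block had 1 residual degree of freedom. Control 2 by the count table, and Control 3 by the labels, stood alone in its block and did not enter the fitted difference. The fold changes and p-values of these fits thus rested on the assumed pairs and not on all 5 libraries.

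**Figure D2:**
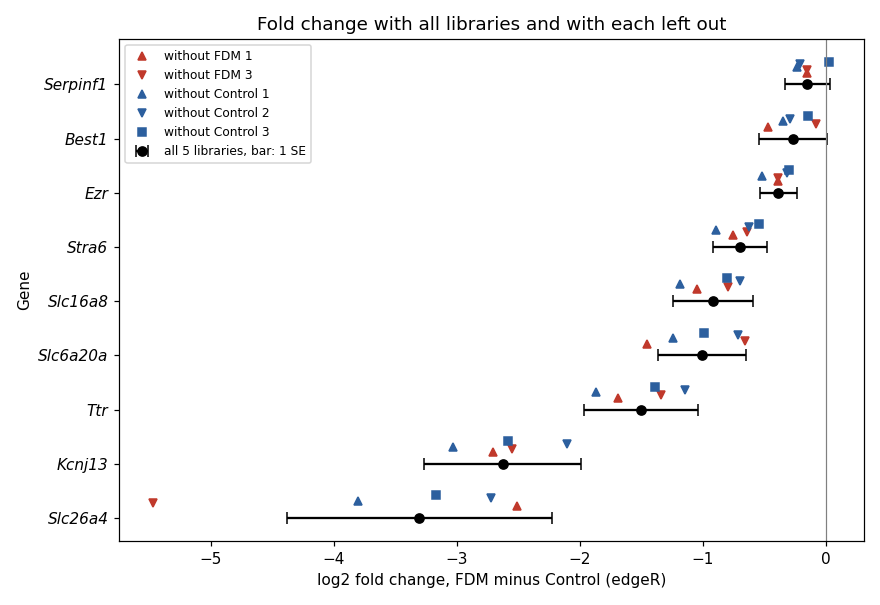
The log2 fold change of each gene, FDM minus control, from edgeR with all 5 libraries (black, bar of 1 standard error) and with each library left out (coloured symbols). Slc26a4 spans -5.47 to -2.51, and Serpinf1 reaches 0.025 without Control 3.

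The group difference rested on which libraries were compared. For 4 of the 9 genes, Kcnj13, Ttr, Stra6 and Ezr, both FDM levels lay below every control level (6.67% of all genes tested). The 95% Poisson intervals of FDM 1 and Control 1 overlapped for all 4, with 30.3 to 33.7 and 32.0 to 35.6 CPM for Ttr. Those of FDM 3 and Control 1 overlapped for Stra6 and Ezr but not for Kcnj13 and Ttr. FDM levels lay below every control level for 9 genes without Control 1 (18.7% of all genes tested) and for 7 without FDM 1 (14.3%). The number was 5 without FDM 3 (19.3%), 4 without Control 2 (15.1%) and 4 without Control 3 (9.84%). Control 2 and Control 3 were the highest libraries for all 9 genes, an order found in 15.4% of all genes tested. In edgeR 5 of the genes had an unadjusted p under 0.05 without FDM 1 (0.658% of all genes called lower), 2 without FDM 3 (0.96%), 7 without Control 1 (3.21%), 4 without Control 2 (1.09%) and 2 without Control 3 (0.544%). After adjustment 0 of the 9 passed without FDM 1, where 0.0923% of genes did. With limma on the normalized counts of the authors, Kcnj13 and Stra6 had an unadjusted p under 0.05 at a pseudocount of 1 (1.65% of genes lower) and at 0.1 (1.63%). Kcnj13 was the gene of the set called in each of these fits.

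Among the 3 control eyes, which were not goggled, the highest level of a gene divided by the lowest had a median of 2.16 over the 9 genes and of 1.22 over the 17354 genes tested that had counts in every control. The ratio was 11.5 for Slc26a4, 4.87 for Kcnj13 and 3.44 for Ttr. It was 2.23 for Slc16a8, 2.16 for Slc6a20a and 1.70 for Stra6, and 1.41, 1.38 and 1.34 for Serpinf1, Ezr and Best1. Of all genes, 99.8% had a smaller ratio than Slc26a4, 99.3% than Kcnj13 and 98.5% than Ttr, while 69.05% had a smaller ratio than Best1. The genes with the widest spread among control eyes were thus also those with the largest difference between the groups. These controls enter both measures. Without Control 1 the median ratio fell to 1.25.

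Between eyes that share a number in the count table, FDM 1 and Control 1 differed little. The difference of log2(CPM + 0.5) had a median of -0.07 over the 9 genes and was below 0 for 5 of them. It reached -1.02 for Slc26a4 and -0.59 for Kcnj13, and lay between -0.13 and 0.07 for the other genes. Between FDM 3 and Control 3 all 9 differences were below 0, with a median of -1.14, and they ran from -2.23 for Slc26a4 and -2.02 for Kcnj13 to -0.37 for Best1. Against Control 1, FDM 3 was lower for 7 genes, with a median of -0.22. The pairing of FDM 3 with Control 3 follows the count table, and the study supplement gives this FDM library the same number. The labels give it another number. The medians over all genes tested were -0.02 for the first pair and -0.0011 for the second.

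**Figure D3:**
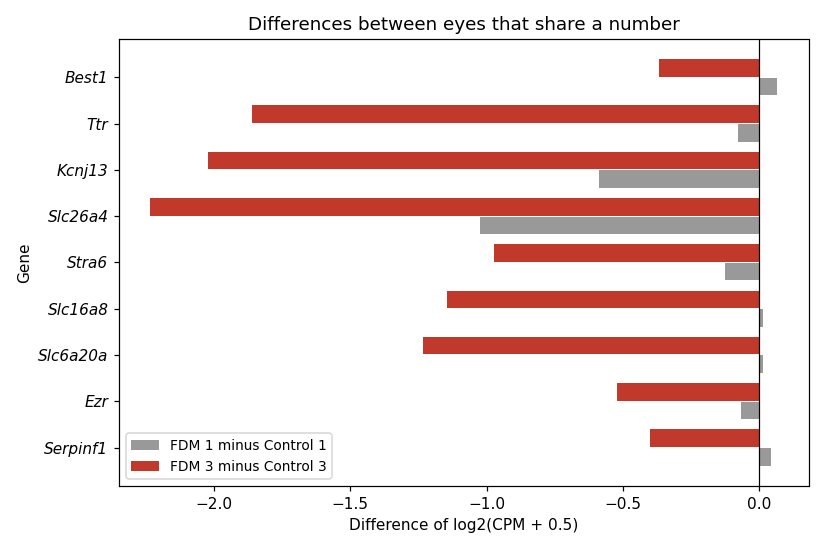
Difference of log2(CPM + 0.5) between the FDM and the control library that share a number in the count table, for each gene. The bars of FDM 1 minus Control 1 are short except for Slc26a4 and Kcnj13, and those of FDM 3 minus Control 3 are below 0 for all 9 genes.

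Across the 5 libraries, the log2 levels of the 36 pairs of genes had a median Pearson correlation of 0.912, given as a description over 5 points that share libraries and depth. Ttr and Slc16a8 were the closest pair at 0.999, and Slc6a20a and Serpinf1 the farthest at 0.387. The median profile of the set, as log2(CPM + 0.5) minus each gene's mean, stood at -0.32 and -0.58 for FDM 1 and FDM 3, and at -0.20, 0.71 and 0.54 for Control 1, 2 and 3. By Euclidean distance over the 5 libraries, the 10 genes with a mean of at least 1 CPM nearest to this profile were Clic6, Slc22a8, Slc7a10, Slc39a12, Rdh5, Mgst1, Cpxm2, Ermn, Lcor and Oca2, at distances of 0.199 to 0.343. Rdh5, a retinol dehydrogenase of the visual cycle, had 451 and 412 counts in the FDM eyes and 433, 1401 and 1135 in the controls. Clic6, a chloride channel protein of secretory epithelia, had 212 and 208 counts in FDM and 226, 551 and 479 in control eyes. By Pearson correlation instead of distance, 3 of these genes, Rdh5, Ermn and Lcor, were among the 10 most alike.

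Markers of the RPE that are not among the 9 genes were examined beside the set. All 13 markers of the visual cycle and of pigment had counts in every library. Control 2 and Control 3 were the highest libraries for 12 of them (15.4% of all genes tested), the exception being Rlbp1. Rpe65, the isomerase of the visual cycle, had 238 and 217 counts in the FDM eyes and 214, 1589 and 1123 in the controls. Lrat, which esterifies retinol, had 113 and 132 against 121, 1006 and 546 counts. Their log2 fold changes were -1.93 (standard error 0.62) and -2.01 (standard error 0.64). Of the 13 markers 5 had an unadjusted p under 0.05 in edgeR, all lower in FDM eyes, namely Rpe65, Lrat, Rdh5, Rgr and Oca2. Over all genes tested, 1.16% were called lower by this rule. For Rlbp1, which Müller glia also express, the log2 fold change was -0.05 (standard error 0.08).

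Most pigment markers shared an order of the high libraries, and the 9 genes did not. Of the 8 pigment markers 7 were highest in Control 3. Of the 9 genes, 5 were higher in Control 2 than in Control 3. The other 4, Best1, Stra6, Ezr and Serpinf1, were higher in Control 3. Dct, an enzyme of melanin synthesis that melanocytes of the choroid also express, had 338 and 547 counts in the FDM eyes and 293, 1067 and 3653 in the controls. The summed level of the pigment markers was 26.6 and 32.3 CPM in the FDM eyes and 23.2, 52.8 and 141 CPM in the controls. Control 3 also had the highest sums of muscle markers and of 5 fibroblast markers, the latter at 27.8 CPM against 7.94 to 14.9 CPM in the other libraries. The summed level of the 13 RPE markers was 457 and 446 CPM in FDM 1 and FDM 3 and 462, 579 and 690 CPM in Control 1, 2 and 3, and the part of RPE content in the differences of the 9 genes was not tested.

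Relative to the summed 13 markers, the median difference of the 9 genes between FDM and control eyes was -0.50 on the log2 scale, and it was -0.83 before this scaling. The range over the 5 libraries narrowed for all 9 genes with this sum, to a median of 1.02 against 1.40. Rlbp1 made up most of that sum. Relative to the pigment markers alone the median difference was 0.09, relative to the markers without Rlbp1 and Rgr it was 0.29, and relative to the mean log2 level of the markers it was 0.01. The range narrowed for 3 of the 9 genes with the pigment markers, where its median was 2.11, for 5 without Rlbp1 and Rgr, where it was 1.74, and for 6 with the mean log2 level, where it was 1.18. The sign of the scaled difference and the narrowing thus depended on the choice of markers.

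**Figure D4:**
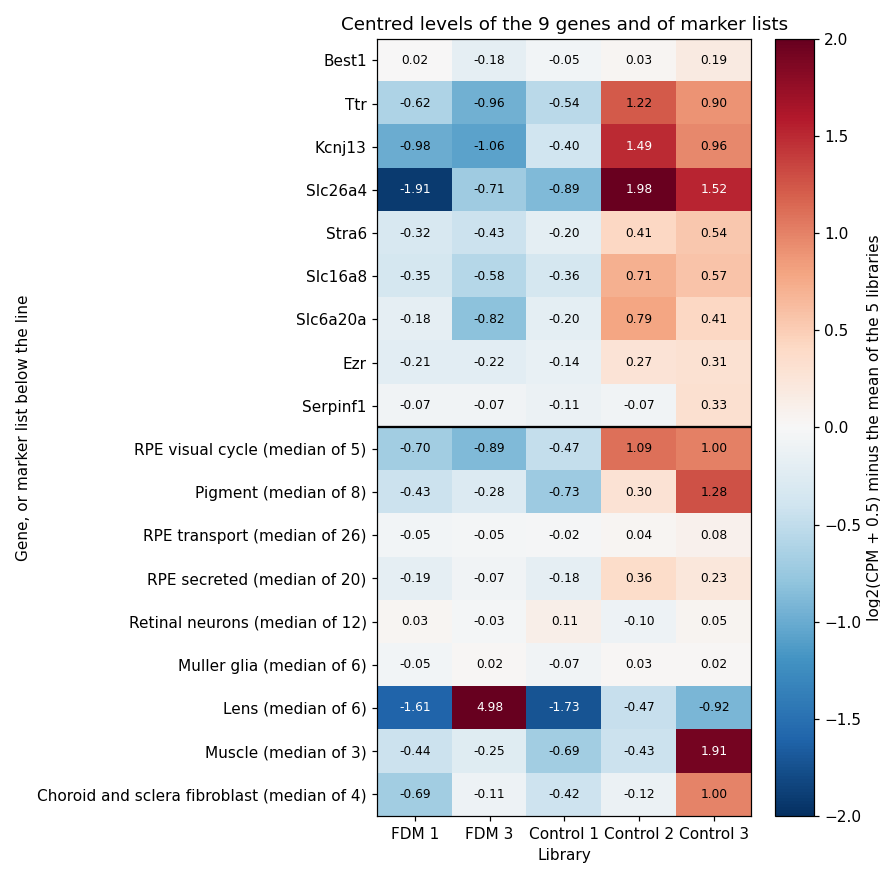
Level of each of the 9 genes, and below the line the median over each marker list, as log2(CPM + 0.5) minus the mean of the 5 libraries (red, above the mean; blue, below it; the colour stops at -2 and 2). Control 2 and Control 3 are above the mean for the 9 genes, except Serpinf1 in Control 2 at -0.07, and for the visual cycle and pigment markers, while the medians for neurons and Müller glia stay between -0.10 and 0.11.

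Other genes of transport and secretion were taken from lists that do not hold the 9 genes. The 26 further RPE transport genes had a median log2 fold change of -0.09. In edgeR 4 of them were lower in FDM eyes at an unadjusted p under 0.05 (1.16% of all genes tested) and 0 higher. These were Car12 and Car14, both carbonic anhydrases, Slc13a3, a carrier of dicarboxylates, and Slc39a12, a zinc transporter, at -1.14 (standard error 0.45), -0.27 (0.09), -1.34 (0.49) and -0.94 (0.38). The most abundant of the list, the taurine transporter Slc6a6, the lactate transporter partner Bsg and the sodium pump subunit Atp1b1, had log2 fold changes of 0.03 (standard error 0.12), -0.07 (0.09) and -0.09 (0.10). Of 20 secreted genes, 5 were lower by the same rule and 0 higher, with a median of -0.24. They were Timp3, an inhibitor of metalloproteinases, Trf, transferrin, Ptgds, prostaglandin D synthase, Col8a2, a collagen, and Bmp4, a growth factor, at -0.53 (standard error 0.22), -0.59 (0.23), -1.61 (0.50), -1.33 (0.38) and -1.10 (0.40). The most abundant of the secreted genes, Apoe, Cst3 and Ctsd, were at -0.25 (standard error 0.14), -0.11 (0.10) and -0.19 (0.10). Control 2 and Control 3 were the highest libraries for 13 genes of each list, and for 15.4% of all genes tested.

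The median log2 fold change of 12 ezrin partners and genes of epithelial polarity was -0.07. By the same rule 2 of them were lower (1.16% of all genes tested) and 0 higher. These were Krt8, a keratin, and Cldn19, a tight junction claudin, at -1.43 (standard error 0.54) and -1.14 (0.39). Podxl and Tjp1, the most abundant of this list, were at 0.05 (standard error 0.16) and 0.07 (0.10). Of 10 paralogs of the set, 0 had an unadjusted p under 0.05 in edgeR and 0 passed after adjustment, with a median of -0.01. Choroid plexus and ciliary epithelium also express Ttr. Of 5 markers of these epithelia all had a log2 fold change below 0 (55.6% of all genes tested), with a median of -0.29. Clic6, at -0.88 (standard error 0.25), had an unadjusted p under 0.05 in edgeR. Best2, given above, did not. The summed level of that list was 13.6 CPM in both FDM eyes and 14.8, 25.4 and 23.0 CPM in the controls. Its part in the level of Ttr was not tested.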

How the data were processed

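Poly(A) RNA of 5 mouse retinas was sequenced by the authors from an unstranded library, and a further FDM library was left out by them for duplicated reads. Per the submitters' processing notes, Trimmomatic 0.39, Salmon 1.10.1 and R 4.3.1 were used. The deposited estimated counts per gene were used as whole numbers. The deposited normalized counts, a signal scaled by the authors with a factor that differs between genes, entered an alternative only. The 9 genes and all lists were chosen with earlier results of these data known, and named genes were the 9, the most abundant of each list or those with p under 0.05, and the 10 nearest profiles. Other genes named for comparison were chosen after their values were seen. Genes that exceeded 10 counts in 2 or more libraries were fitted with TMM and the quasi-likelihood test of edgeR 4.0.16 in R 4.3.3, without a block, and p-values were adjusted by Benjamini-Hochberg over 17432 genes. CPM used TMM library sizes. Positions are from GENCODE on GRCm38. DESeq2 1.42.0, limma 3.58.1, other scalings and filters, a replicate block, and each library left out were tried. The edgeR step was tested on simulated data. Deviations from group means correlated at 0.25 for FDM 1 with Control 1 and 0.10 for FDM 3 with Control 3, and at 0.16 for FDM 3 with Control 2. With 2 FDM libraries, their deviations are mirror images, so these values cannot tell which eyes share a mouse. The authors goggled 3 mice, so the libraries include FDM and control eyes of the same animal. The main fit, without a block, treated all eyes as independent. Nothing in the labels states separate litters, so p-values measure the spread between these samples and not between independent animals.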

Additional observations from a re-analysis of the deposited data

How the results depend on the processing

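With 2 FDM and 3 control libraries, what was called changed when single libraries were left out. Each such fit also had fewer residual degrees of freedom, so a call could be lost with little change in the difference. Without FDM 3, for example, Ezr stood at -0.385, and with all libraries at -0.387. The count of genes with an unadjusted p under 0.05, 7 of the 9 in edgeR, ran from 2 to 7 with each library left out, and was 2 without FDM 3, 4 without Control 2 and 2 without Control 3. With limma on the deposited normalized counts it was 2 at a pseudocount of 1 and 2 at 0.1. It was 7 with other scaling factors, with library totals, with no filter, and in DESeq2 (0.78% of all genes lower). With a stricter filter that left out Best1 it was 7 of 8. For the other scalings and filters the share of all genes called is not given, so these counts cannot be read against it. The count with both FDM libraries below every control, 4 of the 9, ran from 4 to 9 with each library left out, with 7 without FDM 1 (14.3% of all genes tested) and 9 without Control 1 (18.7%). The median log2 fold change ran from -1.19 to -0.66. With the replicate block the count called stayed at 7, and the median was -0.65 with the pairing of the count table and -0.71 with that of the labels. Of the 125 refitted fold changes of single genes, 98 kept their direction and their side of the threshold, 25 kept the direction only, and 2 turned direction, both of Serpinf1, at 0.020 with the replicate block by label numbers and at 0.025 without Control 3. With each library left out Serpinf1 ran from -0.24 to 0.025. The difference relative to RPE markers, -0.50, was 0.093 with pigment markers, and 0.29 without Rlbp1 and Rgr and 0.012 with the mean log2 level, both chosen after seeing the data. It ran from -0.71 to -0.29 with each library left out. The median spread among controls, 2.16, ran from 1.25 without Control 1 to 2.16 with each control left out, and was 2.18 and 2.21 with other scaling factors and library totals. Of the 10 nearest genes 3 were shared with the list by correlation. The causes were not tested. At the counts of Best1, 22 to 35 a library, the Poisson intervals of all libraries overlapped.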
